A study of Malus domestica with 16 samples.

Results

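Genes annotated as membrane transporters or channels were followed in the peel of stored Granny Smith apples. The members were the sense probes of 44 gene models whose function name in the readable rows of the paper's supplementary expression table holds a transport word (transporter, antiporter, symporter, aquaporin, intrinsic protein, channel, permease or carrier), out of 59208 gene models with a sense probe on the array. Of the 47 names that matched, 3 were dropped for naming a photosystem, a kinase or a lipid or acyl carrier protein. The names described a transporter or channel for 38 members, in 9 substrate classes, and another protein for 6 members, which are given apart. All 44 members came from rows that the study had selected on higher ratios in 1-MCP than in Control peel, so that comparison chose them and is only described here. The readable rows hold genes selected there and in another comparison too, and end inside the block of genes selected in that comparison alone, so genes of that block are incompletely covered. The other 3 comparisons therefore also had a part in which genes are members, and their counts over the members are a description and no independent support.

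Wild-type fruit was harvested at physiological maturity and kept in every group at 0 °C and 95% relative humidity, for 6 months. Control fruit had no other treatment, 1-MCP fruit was exposed for 24 h to 1-methylcyclopropene, a gas that blocks ethylene receptors, O3 fruit was stored with ozone at 0.3 μl per litre in the air, and 1-MCP+O3 fruit had both. From each group 2 extracts of RNA, A and B, were hybridized in pairs on 8 two-colour arrays, 2 for each of 4 comparisons. The group named first carried Cy3 in replicate A and Cy5 in replicate B, so a dye bias cancels in the mean of both arrays but dye and replicate cannot be told apart within a comparison.

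Transporters move water, sugars, nucleobases, ions and hormones across the plasma membrane and the membranes of organelles. Aquaporins are channels for water and small uncharged solutes, carriers and permeases bind a substrate and flip it across, ABC transporters use ATP, and ion channels open a selective pore. In fruit peel they take part in sugar unloading, turgor and the export of wax and cutin monomers to the cuticle. The functions given below are those known for the matched Arabidopsis gene, which the function names come from, and the 44 members matched 36 different Arabidopsis genes.

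Values are log2 ratios of the first-named over the second-named group, normalized within each array, given as replicate A and replicate B with the mean ± SD (n = 2 arrays). Levels are normalized log2 intensities of each extract and are compared only within a probe. A member is said to have risen or fallen, or to have been called, where limma gave an unadjusted p under 0.01, the threshold of the study. In that fit 0 sense probes had a Benjamini-Hochberg adjusted p under 0.05 in any of the 4 comparisons, where the lowest adjusted p ranged from 0.181 to 0.612, while between 5131 and 7232 sense probes had an unadjusted p under 0.05. With the trend and robust options of limma, an adjusted p under 0.05 was reached by 12 members in 1-MCP vs Control, 1 in O3 vs Control, 9 in 1-MCP+O3 vs Control and 1 in 1-MCP+O3 vs O3. Of these, in the same order, 12, 0, 7 and 1 were also called up without those options at an unadjusted p under 0.01. The member in O3 vs Control is thus none of those described below as risen there. The p-values measure only the spread between the 2 arrays of a comparison, moderated by limma over all probes. Extract, dye and array differ together between those arrays.

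The share of spots above background in a channel ranged from 36.1% to 54.9%. Of the members, 35 were above background in all 16 channels, and the dimmest, HKT1 (MDP0000227262), in 6. The peel markers FDH, CER1, CUT1 and LACS2, enzymes of cuticular wax and cutin synthesis, were above background in all 16 channels. So was a xylem serine peptidase gene, while the pollen allergen family genes listed as markers of another tissue were above background in 15 or 16 channels. In whole peel, fewer cells of a type and less RNA per cell cannot be told apart.

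**Figure D1:**
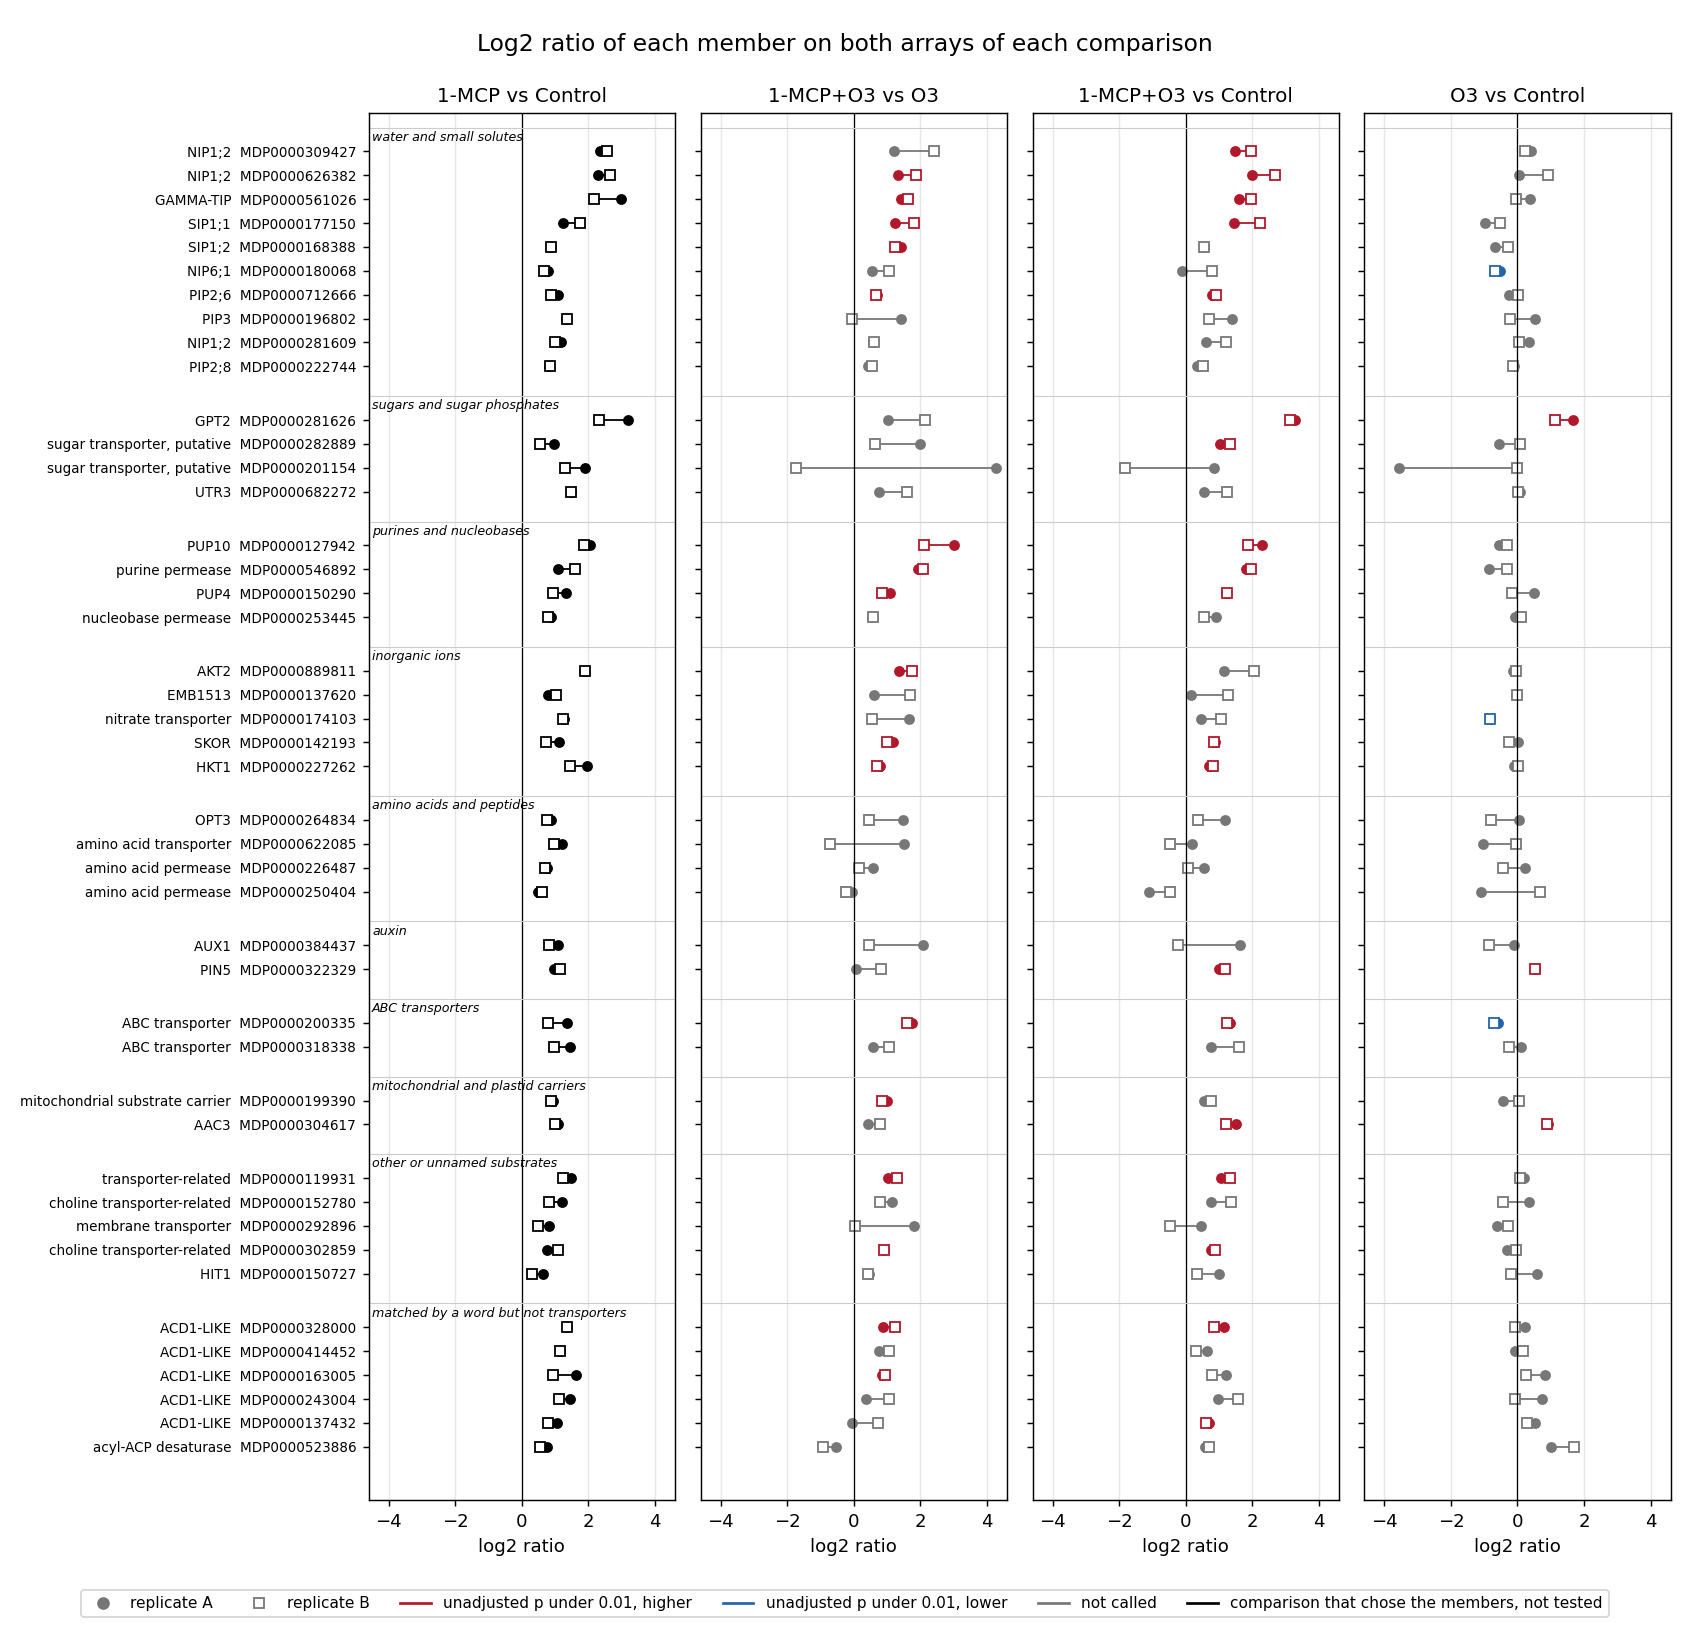
Log2 ratio (horizontal axis) of each of the 44 members (rows, by substrate class) on the replicate A array (filled circle) and the replicate B array (open square) of each comparison. Red and blue mark an unadjusted p under 0.01, and black marks the comparison that chose the members, where all 44 lie above 0 on both arrays. In 1-MCP+O3 vs O3, 38 lie above 0 on both arrays, and in O3 vs Control 11 do.

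The first question was how these genes differ between 1-MCP and untreated peel when ozone is present in both, in extracts that were not on the 1-MCP vs Control arrays. Of the 44 members, 17 rose and 0 fell in 1-MCP+O3 vs O3. Over all sense probes 1.38% rose and 1.72% fell. The median of the members was 0.95, against 0.01 for all sense probes, and they ranged from -0.72 to 2.56. On both arrays 38 were higher and 2 were lower, and 4 had opposite signs on the arrays. The share of all sense probes with the same sign on both arrays was not computed. Both 1-MCP+O3 extracts lay above both O3 extracts for 39 of 44 members, against 22.4% of all sense probes.

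The markers, which came from the same selected rows, moved with the members. Over the 7 peel markers the mean level was 12.82 and 13.09 in the 1-MCP+O3 extracts and 11.33 and 11.48 in the O3 extracts. Of the 7, 5 rose in 1-MCP+O3 vs O3, and their ratios ran from 1.26 for LACS2 (MDP0000314713) to 2.72 for CUT1 (MDP0000392495). The 3 markers of other tissues had a mean level of 10.32 and 9.71 against 8.15 and 8.13. The pollen allergen family genes MDP0000219522 and MDP0000513191 rose, at 1.47 and 2.31, while the xylem serine peptidase gene MDP0000272177, at 1.98, was not called. All 10 markers also rose in 1-MCP vs Control. Their part in the members' values was not tested.

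These shares belong to the selected rows and not to transport genes as such. Of the 1433 other genes in the same readable rows, 36.1% rose in 1-MCP+O3 vs O3, with a median of 1.01. The counts of each class below stand beside this share and those over all sense probes. The Pearson r between the arrays was -0.0478 across the 44 genes, which share both arrays and are not independent replicates. It includes the putative sugar transporter gene MDP0000201154, whose arrays had opposite signs and lay far apart (ratios given below). The r without that gene was not computed. Highest and lowest members and classes named below are ranks of the means over both arrays. Whether these ranks recur between arrays was not tested.

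The number of calls depended on the normalization and the error model. After median centring in place of loess 0 members were called, 8 were called when dim probes were left out of the fit, and between 25 and 38 were called in fits of all extracts or arrays together. Their median stayed between 0.95 and 1.07 in all these fits, and it was 1.46 with the processed signals of the extraction software, where 16 were called. With 1 array of this comparison left out, a fit of the other 7 called 32 members up without replicate A and 29 without replicate B. Each of the 17 calls was kept in 5 to 11 of 12 alternatives at the same threshold.

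Water channels formed the largest class, with 10 members, and 5 of them rose in 1-MCP+O3 vs O3. The shares that rose were 1.38% of all sense probes and 36.1% of the other readable rows. Those called were a NIP, both SIPs, the tonoplast channel GAMMA-TIP and the plasma membrane channel PIP2;6. All 10 had both 1-MCP+O3 extracts above both O3 extracts, as did 39 of all 44 members and 22.4% of all sense probes. None fell, and the median ratio of the class was 1.07.

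GAMMA-TIP (MDP0000561026), which lets water cross the vacuolar membrane, had levels of 8.68 and 8.34 in the 1-MCP+O3 extracts and 7.19 and 6.63 in the O3 extracts. Levels in Control were 6.84 and 6.70 and in 1-MCP 9.69 and 8.75. All 4 extracts from 1-MCP fruit were thus above the 4 from fruit without it. Of these, the 1-MCP and Control extracts entered the choice of the members, so their separation is no support. The share of all sense probes with all 4 above the other 4 was not computed. The ratios in 1-MCP+O3 vs O3 were 1.43 and 1.64, a 2.89-fold rise (1.53 ± 0.15, limma adjusted p = 0.422). In O3 vs Control the ratios were 0.37 and -0.04 and the arrays did not share a sign.

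The 3 gene models named NIP1;2 match the same Arabidopsis gene, a NOD26-like channel that carries small solutes and, in Arabidopsis root, aluminium malate. MDP0000626382 had ratios of 1.32 and 1.88 in 1-MCP+O3 vs O3 and rose 3.04-fold. MDP0000309427 had the highest mean of the class, 1.81, but its arrays gave 1.20 and 2.42 and it was not called. The third, MDP0000281609, was lower, at 0.58 and 0.61, and was not called. Whether the probes of these models detect each other's transcripts was not tested.

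The SIP genes encode small aquaporins of the endoplasmic reticulum. SIP1;1 (MDP0000177150) was at 10.55 and 11.10 in 1-MCP+O3 and at 9.0 and 8.76 in O3, with ratios of 1.23 and 1.80 (1.51 ± 0.40). SIP1;2 (MDP0000168388) was at 8.63 and 8.61 against 7.31 and 7.61, with ratios of 1.42 and 1.24 (1.33 ± 0.12). Both genes rose. In O3 vs Control their means were -0.75 and -0.48, lower on both arrays and not called.

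Plasma membrane water channels had ratios below the class median with the main background correction, whose offset draws dim probes toward 0. PIP2;6 (MDP0000712666) rose, with ratios of 0.70 and 0.68, although the O3 extracts were above background on 1 of 2 arrays. PIP2;8 (MDP0000222744) gave 0.42 and 0.55. PIP3 (MDP0000196802) gave 1.41 and -0.04, so its arrays disagreed. The last 2 were not called. With the processed signals PIP2;6 was at 2.07 and PIP2;8 at 1.65, beside 1.78 for NIP1;2 (MDP0000626382), so the order within the class was not kept.

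NIP6;1 (MDP0000180068), a channel for boric acid in Arabidopsis shoots, had ratios of 0.55 and 1.07 in 1-MCP+O3 vs O3 and was not called there. It was the aquaporin gene that fell in O3 vs Control. Its levels were 8.01 and 8.06 in Control and 7.33 and 7.29 in O3, and the groups did not overlap. Both O3 extracts were likewise below both Control extracts for 15.4% of all sense probes.

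**Figure D2:**
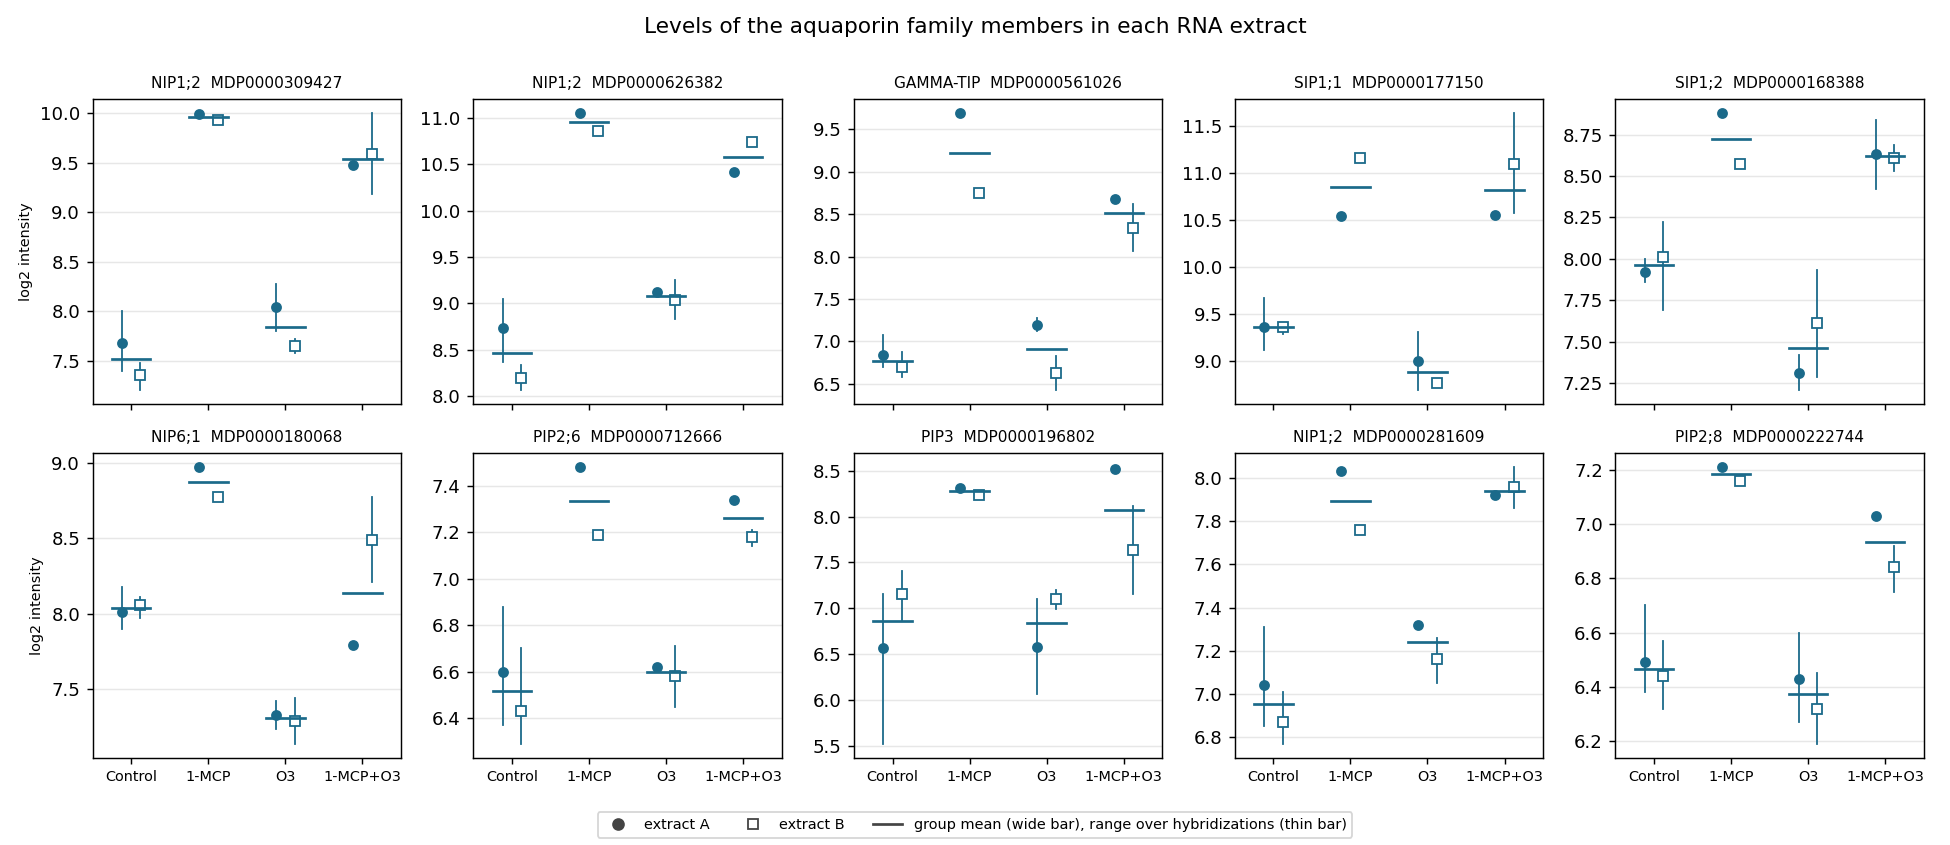
Normalized log2 intensity (vertical axis, scaled separately for each gene) of the 10 aquaporin family members in extracts A (filled circle) and B (open square) of the 4 groups. Wide bars are group means and thin bars the range over the hybridizations of an extract, of which 1-MCP extracts had 1. In every panel both 1-MCP+O3 extracts lie above both O3 extracts, as for 39 of all 44 members and 22.4% of all sense probes.

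Nucleobase permeases held the 2 largest mean ratios of the 44 members in the fit of 1-MCP+O3 vs O3, although with the processed signals HKT1 (MDP0000227262) was highest. Of 4 members, 3 rose in 1-MCP+O3 vs O3 and the class median was 1.49. PUP10 and the purine permease gene MDP0000546892 match neighbouring family members that carry purine derivatives in Arabidopsis, and both were 4-fold or more higher.

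PUP10 (MDP0000127942) was at 11.47 and 11.41 in the 1-MCP+O3 extracts and at 8.66 and 9.35 in the O3 extracts. Its ratios of 3.01 and 2.12 gave the highest mean of that fit, a 5.90-fold rise (2.56 ± 0.63, limma adjusted p = 0.47). Its Control levels of 9.29 and 9.59 overlapped with O3, and its 1-MCP levels were 11.37 and 11.44.

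The purine permease gene MDP0000546892 was at 10.17 and 10.27 in 1-MCP+O3 against 7.90 and 8.15 in O3, and its ratios of 1.94 and 2.08 were close on both arrays. It rose 4.03-fold (2.01 ± 0.10, limma adjusted p = 0.422). PUP4 (MDP0000150290) rose with ratios of 1.09 and 0.85. The plastid nucleobase permease gene MDP0000253445, of another protein family, had ratios of 0.55 and 0.57 and was not called.

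Sugar carriers were higher in the mean but 0 of the 4 was called in 1-MCP+O3 vs O3, and for each gene the arrays were far apart. The mean ratios of the 4 genes ran from 1.19 to 1.58, and 1 of the genes had opposite signs on the arrays. The genes were a plastid glucose 6-phosphate carrier, a pair of putative sugar transporters and a nucleotide sugar transporter.

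GPT2 (MDP0000281626) encodes a translocator that brings glucose 6-phosphate into plastids in exchange for phosphate. Its levels were 14.25 and 13.92 in 1-MCP+O3, 13.16 and 12.05 in O3, 13.93 and 13.20 in 1-MCP and 11.02 and 10.79 in Control. Both extracts of each treated group thus lay above both Control extracts, although the 1-MCP and Control extracts entered the choice of the members. Over all sense probes this held for 18.2% in O3 and 23.2% in 1-MCP+O3. The ratios of 1.02 and 2.15 in 1-MCP+O3 vs O3 were too far apart for a call (1.58 ± 0.80). GPT2 rose in O3 vs Control, at 1.67 and 1.13, and in 1-MCP+O3 vs Control, at 3.30 and 3.15, where it had the highest ratio of all members (3.23 ± 0.10, 9.37-fold).

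The putative sugar transporter gene MDP0000201154, whose Arabidopsis match carries hexoses with protons, varied most between extracts. It was at 7.98 in O3 replicate A and 11.05 in O3 replicate B, and at 11.95 and 9.32 in the 1-MCP+O3 replicates. The 2 hybridizations of the O3 replicate A extract gave 7.89 and 8.07, and those of 1-MCP+O3 replicate B gave 9.17 and 9.48. The differences were thus present on separate arrays. Each O3 extract was labelled with both dyes, so the difference within O3 lay between extracts. Each 1-MCP+O3 extract carried the same dye on both its arrays, so extract and dye cannot be told apart there. The ratios of this gene in 1-MCP+O3 vs O3 were 4.28 and -1.73, and no direction can be given.

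The other putative sugar transporter gene, MDP0000282889, had ratios of 2.00 and 0.63. UTR3 (MDP0000682272), which imports UDP-sugars into the endoplasmic reticulum, had the lowest mean of the class, with 0.76 and 1.61. Neither was called in 1-MCP+O3 vs O3.

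Ion channels and carriers numbered 5, of which 3 rose in 1-MCP+O3 vs O3. All 5 were higher on both arrays, as were 38 of all 44 members. The 3 that rose carry potassium or sodium. The class median was 1.1.

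AKT2 (MDP0000889811), a potassium channel of the phloem in Arabidopsis, was at 8.64 and 8.72 in 1-MCP+O3 and at 7.17 and 6.90 in O3. It rose 2.92-fold, with ratios of 1.36 and 1.74. In O3 vs Control its ratios were -0.13 and -0.05.

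SKOR (MDP0000142193) encodes an outward potassium channel that loads the xylem in Arabidopsis roots. It rose 2.12-fold, with ratios of 1.17 and 1.00, and the O3 extracts were above background on 1 of 2 arrays. HKT1 (MDP0000227262), which retrieves sodium from the xylem, was at 7.11 and 6.54 against 6.16 and 5.86. The O3 extracts were not well above background on either array, so the rise is a bound, at least 1.67-fold, taken against the probe's own O3 signal. Its ratio of 0.74 became 3.53 with the processed signals, so HKT1 has no rank within the class.

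The remaining ion genes were not called in 1-MCP+O3 vs O3. EMB1513 (MDP0000137620) had ratios of 0.60 and 1.70. The nitrate transporter gene MDP0000174103 had 1.65 and 0.54.

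Amino acid and peptide carriers had the lowest class median in 1-MCP+O3 vs O3, 0.38. Of 4 members 0 rose and 2 were higher on both arrays. OPT3 (MDP0000264834), which moves iron and copper in the phloem of Arabidopsis, had the highest mean, with 1.47 and 0.46. The amino acid permease gene MDP0000250404 had the lowest, with -0.04 and -0.23, and the amino acid transporter gene MDP0000622085 gave 1.51 and -0.71. MDP0000226487, which matches the same Arabidopsis gene as MDP0000250404, gave 0.58 and 0.16.

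Of the auxin carriers, AUX1 (MDP0000384437), which brings auxin into cells, had ratios of 2.09 and 0.45, and PIN5 (MDP0000322329), which in Arabidopsis moves auxin at the endoplasmic reticulum, had 0.08 and 0.83. Neither was called in 1-MCP+O3 vs O3.

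The ABC transporter gene MDP0000200335 matches an Arabidopsis half-transporter that exports cutin and wax components to the cuticle. It was at 12.86 and 13.30 in 1-MCP+O3 and at 11.21 and 11.63 in O3, and it rose 3.18-fold (ratios of 1.74 and 1.60, 1.67 ± 0.10, limma adjusted p = 0.422). The second ABC transporter gene, MDP0000318338, had 0.59 and 1.06 and was not called.

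Carriers of the inner organelle membranes had 1 call. MDP0000199390, which matches a plastid carrier of adenine nucleotides, rose with ratios of 1.01 and 0.85, the O3 extracts being above background on 1 of 2 arrays. The mitochondrial ADP/ATP carrier gene AAC3 (MDP0000304617) had 0.43 and 0.79 and was not called.

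Of 5 members with other or unnamed substrates, 2 rose. MDP0000119931, a transporter-related gene with the highest mean of the group, gave 1.04 and 1.31. The choline transporter-related gene MDP0000302859 gave 0.90 and 0.90, and MDP0000152780, which matches the same Arabidopsis gene, gave 1.15 and 0.79 and was not called. The membrane transporter gene MDP0000292896 gave 1.81 and 0.05. HIT1 (MDP0000150727), whose Arabidopsis match tethers vesicles to the Golgi and is no transporter in the narrow sense, was lowest with 0.47 and 0.42.

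The second question was how ozone alone moved the same genes. In O3 vs Control 3 members rose and 3 fell, while 1.71% of all sense probes rose and 0.738% fell. The median of the members was -0.06, with a range from -1.79 to 1.40. Of the 44, 11 were higher and 15 lower on both arrays and 18 had opposite signs, and these shares were not computed over all sense probes. Among the other readable rows 3.63% rose and 1.61% fell. The Control extracts are those that also entered the choice of the members.

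Those that rose were the sugar phosphate translocator GPT2 (MDP0000281626), by 2.64-fold (ratios given above), the ADP/ATP carrier AAC3 (MDP0000304617) and the auxin carrier PIN5 (MDP0000322329). AAC3 was at 9.41 and 9.62 in Control and at 10.38 and 10.35 in O3, with ratios of 0.91 and 0.88, a 1.86-fold rise. PIN5 was at 8.40 and 8.17 in Control and at 9.17 and 8.63 in O3, with ratios of 0.52 and 0.53. For all 3, both O3 extracts lay above both Control extracts. This held for 10 of the 44 members and for 18.2% of all sense probes.

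Those that fell were the nitrate transporter gene MDP0000174103, NIP6;1 (MDP0000180068) and the ABC transporter gene MDP0000200335. The nitrate transporter gene was at 10.84 and 11.14 in Control, 9.69 and 10.39 in O3, 12.35 and 12.37 in 1-MCP and 11.14 and 11.67 in 1-MCP+O3. It fell by 0.82 (ratios of -0.83 and -0.82), and both O3 extracts were below both Control extracts. The latter held for 9 of the 44 members and for 15.4% of all sense probes. NIP6;1 had ratios of -0.53 and -0.67. The ABC transporter gene had -0.60 and -0.71, but its level in O3 replicate B, 11.63, overlapped with that in Control replicate A, 11.59, so that only the pairs on an array separated.

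GPT2 kept its call in 10 of 12 alternative ways of processing at the same threshold and AAC3 in 8, while the other 4 genes kept theirs in 3 to 5. With the O3 vs Control array of replicate A left out, in a fit of the other 7 arrays, 1 member was called down and 4 up. After median centring 0 were called in either direction.

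**Figure D3:**
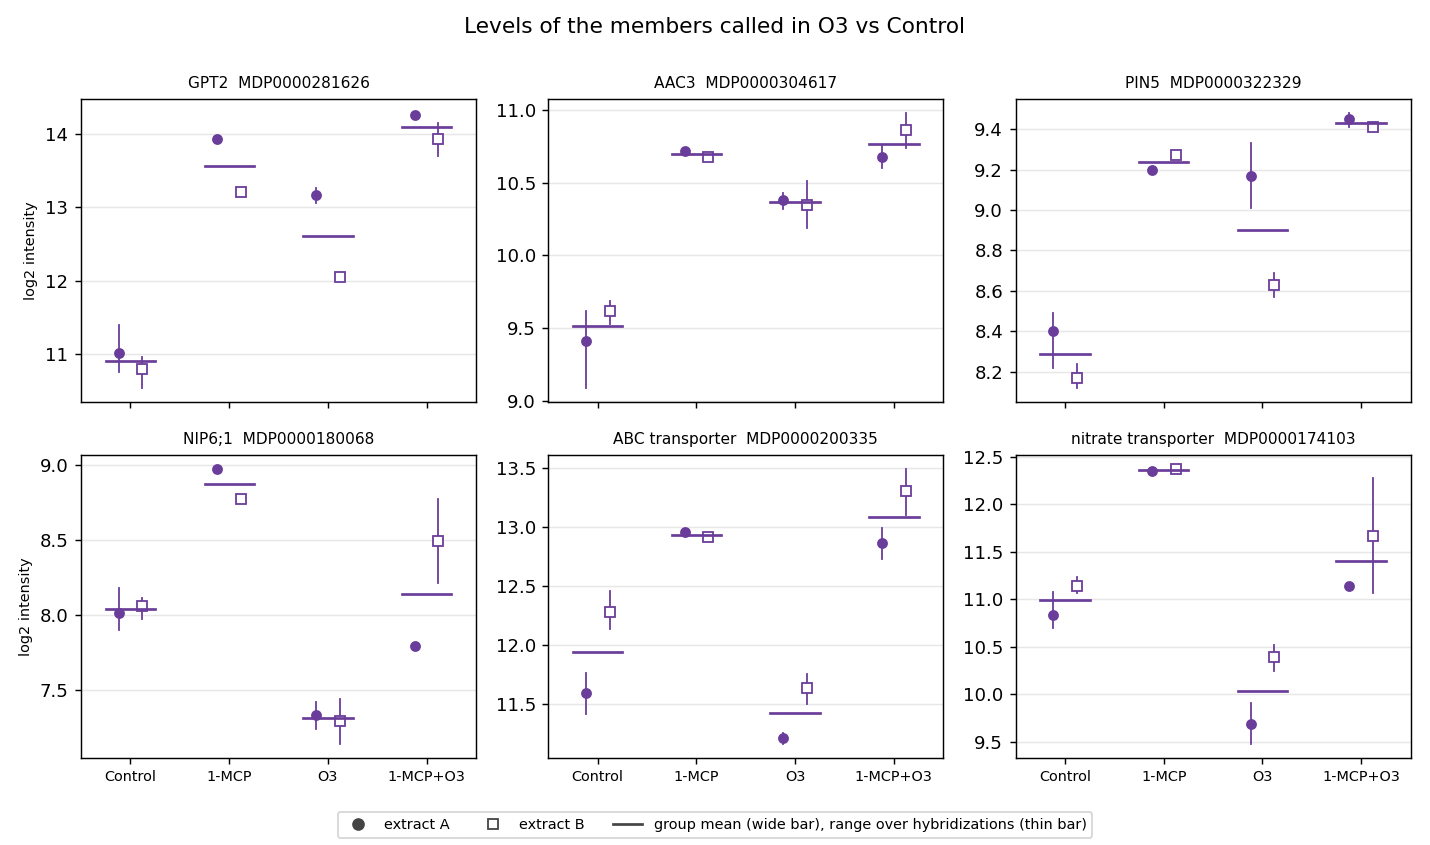
Normalized log2 intensity (vertical axis, scaled separately for each gene) of the 6 members called in O3 vs Control, in extracts A (filled circle) and B (open square) of the 4 groups, with group means (wide bars) and the range over hybridizations (thin bars). GPT2, AAC3 and PIN5 are higher in O3 than in Control, NIP6;1 and the nitrate transporter gene are lower, and the extracts of the ABC transporter gene MDP0000200335 overlap between 11.63 and 11.59.

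The third question was the combined treatment against Control. In 1-MCP+O3 vs Control 19 members rose and 0 fell, with 2.05% of all sense probes rising and 1.57% falling, and the median of the members was 0.88. This comparison shares the Control extracts with the one that chose the members. Among the 1433 other readable rows, 42.6% rose. Without the replicate A array of the comparison 29 members rose in a fit of the other arrays, and without the replicate B array 30 rose.

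The members called here included GPT2 (MDP0000281626), at 3.23, NIP1;2 (MDP0000626382), with 2.00 and 2.70, and PUP10 (MDP0000127942), with 2.29 and 1.89. AAC3 (MDP0000304617) rose with 1.52 and 1.21. The lowest ratio was that of the amino acid permease gene MDP0000250404, with -1.09 and -0.48, which was not called.

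In 1-MCP vs Control, the comparison that chose them, all 44 members were higher on both arrays, with ratios from 0.47 (HIT1, MDP0000150727) to 2.75 (GPT2, MDP0000281626) and a median of 1.08. In the present fit 36 of them passed the threshold, where 2.26% of all sense probes rose and 2.37% fell, and this count follows from the choice. After GPT2, the highest were GAMMA-TIP (MDP0000561026), at 2.58, and the NIP1;2 models MDP0000626382, at 2.46, and MDP0000309427, at 2.45. The 8 that missed the threshold in this fit ranged from 0.47 to 1.29. Just inside it was the choline transporter-related gene MDP0000302859, at 0.92, and just outside it SKOR (MDP0000142193), at 0.91.

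The median SD between the arrays of a comparison was 0.16 for the members in 1-MCP vs Control, 0.24 in O3 vs Control, 0.30 in 1-MCP+O3 vs Control and 0.27 in 1-MCP+O3 vs O3. For the 34 members with 2 spots per array, the median difference between spots was 0.26. Over all 44 members, the median difference between the arrays of a comparison was 0.33. An array value is the mean over the spots of a probe, so these differences are not on the same scale.

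The 6 members matched by a word were 5 gene models named ACD1-LIKE, electron carriers related to an oxygenase of chlorophyll breakdown, and an acyl carrier protein desaturase gene. The ACD1-LIKE models MDP0000163005, with 0.86 and 0.93, and MDP0000328000, with 0.88 and 1.24, rose in 1-MCP+O3 vs O3, and the other 3, with means from 0.34 to 0.91, were not called. All 5 match 1 Arabidopsis gene.

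The desaturase gene MDP0000523886 puts the first double bond into stearoyl chains. It was at 6.77 and 7.22 in Control, 7.35 and 7.80 in 1-MCP, 7.90 and 8.63 in O3 and 7.25 and 7.62 in 1-MCP+O3. Both O3 extracts were thus the highest, and the share of all sense probes with that order was not computed. The O3 extracts lay above both 1-MCP+O3 extracts, as for 19.8% of all sense probes. Its ratios were 1.00 and 1.70 in O3 vs Control and -0.53 and -0.91 in 1-MCP+O3 vs O3, and neither was called. It missed the threshold narrowly in O3 vs Control (limma unadjusted p = 0.0114) and was called there in 10 of 12 alternatives, and in 1-MCP+O3 vs O3 in 3 of 12.

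Probes for the opposite strand of the same 44 genes were not used to choose them. They were dimmer: 17 were above background in no channel and 3 in all 16. In 1-MCP+O3 vs O3, 2 of the 44 rose and 0 fell, with 0.24% of all antisense probes rising and 0.424% falling. In O3 vs Control 1 rose and 0 fell, beside shares of 0.231% and 0.343%. In 1-MCP+O3 vs Control 1 rose and 1 fell, beside shares of 0.295% and 0.474%. In 1-MCP vs Control 2 rose and 1 fell (0.594% and 0.719% of all antisense probes), on the arrays whose sense probes chose the genes.

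All these calls came from 3 genes. For GPT2 (MDP0000281626) both strands went the same way: the antisense probe was at 6.75 and 6.36 in Control, 8.71 and 7.68 in 1-MCP, 7.51 and 7.06 in O3 and 8.85 and 8.68 in 1-MCP+O3, and it rose in 1-MCP+O3 vs O3 (1.14 and 1.33) and in O3 vs Control (0.82 and 0.70). The antisense probe of the ABC transporter gene MDP0000200335 also rose in 1-MCP+O3 vs O3, at 1.07 and 0.89.

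The antisense probe of GAMMA-TIP (MDP0000561026) ran opposite to the sense probe between the groups with and without 1-MCP. Between O3 and Control the sense levels overlapped. The antisense probe was at 10.11 and 10.68 in Control, 9.46 and 9.62 in O3, 8.26 and 7.95 in 1-MCP+O3 and 7.39 and 7.35 in 1-MCP. This order of groups did not overlap at any step, and the share of all antisense probes with such an order was not computed. The Control and 1-MCP extracts in it are those whose sense probes chose the genes. The antisense probe fell in 1-MCP+O3 vs Control, with ratios of -1.94 and -2.74. In 1-MCP+O3 vs O3 its ratios were -1.15 and -1.92 and in O3 vs Control -0.87 and -1.48, lower on both arrays and not called. In 1-MCP vs Control they were -2.57 and -3.58. The 2 probes are different sequences, so their levels cannot be set against each other.

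**Figure D4:**
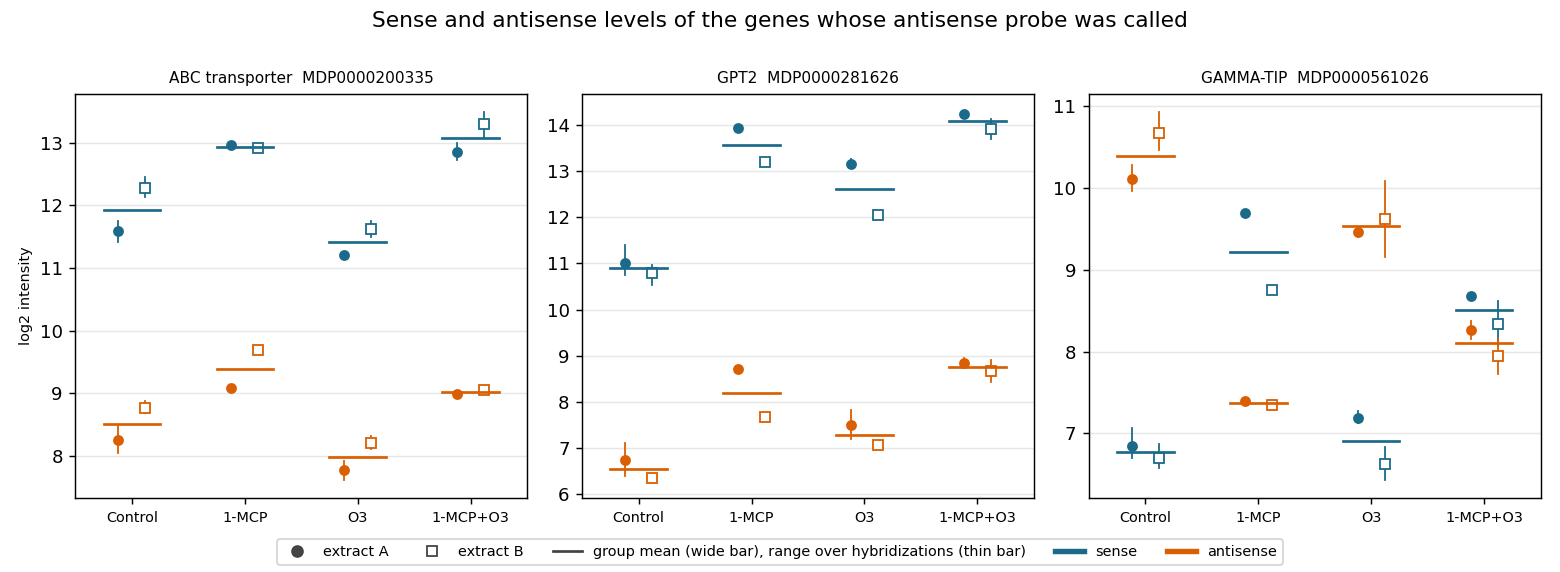
Normalized log2 intensity (vertical axis, scaled separately for each gene) of the sense probe (blue) and the antisense probe (orange) of the 3 member genes whose antisense probe was called, in extracts A (filled circle) and B (open square) of the 4 groups, with group means (wide bars) and the range over hybridizations (thin bars). Both strands of GPT2 and of the ABC transporter gene are highest in extracts from 1-MCP fruit. For GAMMA-TIP (MDP0000561026) the antisense probe falls from 10.11 and 10.68 in Control to 7.39 and 7.35 in 1-MCP, where the sense probe is higher. The sense levels of GAMMA-TIP overlap between Control and O3. The shares of all probes with these orders of groups were not computed.

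Another 23 transport genes were listed from names without the transport words above, such as the proton-dependent oligopeptide transport family. Of these, 22 came from the same selected rows and 1, the voltage-dependent anion channel gene MDP0000271281, is a reference gene. Of the 23, 8 rose and 0 fell in 1-MCP+O3 vs O3, where 1.38% of all sense probes and 36.1% of the other readable rows rose. None rose and 1 fell in O3 vs Control, beside 1.71% and 0.738% of all sense probes. In total 13 rose in 1-MCP+O3 vs Control, beside 2.05% of all sense probes and 42.6% of the other readable rows. These readable rows include 22 of the 23 genes. In O3 vs Control the median of the 23 was 0.08.

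Of the nitrate and peptide carriers of the oligopeptide transport family 5 of 7 were called in 1-MCP+O3 vs O3, with a median of 1.74, and the anion exchange gene was called at the same value. MDP0000213770 rose with 3.02 and 2.43 and MDP0000565104 with 2.35 and 2.15. The MtN3 sugar exporter family gene MDP0000351085 rose with 1.90 and 2.25. The ABC transporter gene PDR4 (MDP0000121094) rose with 2.33 and 1.94. The reference channel MDP0000271281 had -0.80 and 0.19 and was called in none of the 4 comparisons.

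**Figure D5:**
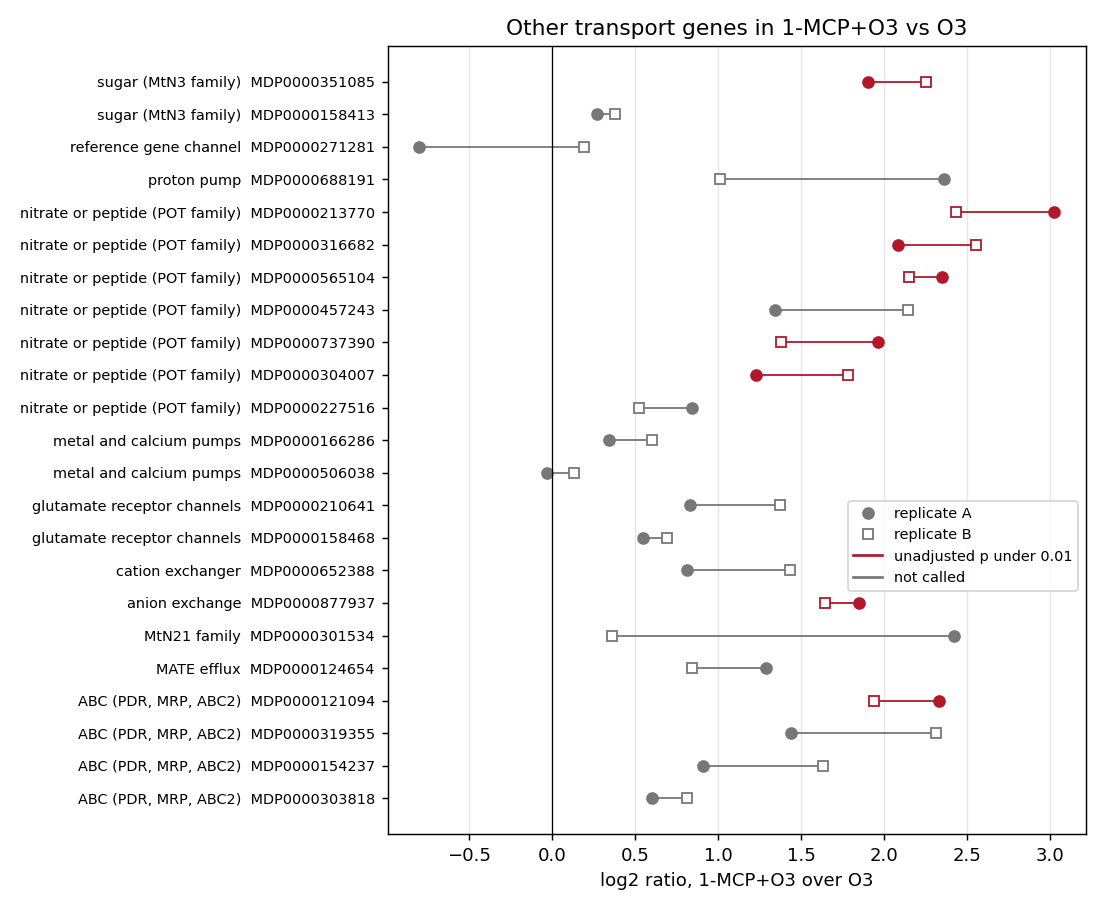
Log2 ratio of 1-MCP+O3 over O3 (horizontal axis) for the 23 other transport genes (rows, by family) on the replicate A array (filled circle) and the replicate B array (open square). Red marks the 8 genes with an unadjusted p under 0.01, and the reference gene channel is the one gene with a mean below 0.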

How the data were processed

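Total RNA of apple peel was amplified, labelled with Cy3 or Cy5 and hybridized on 8 two-colour Agilent arrays. The authors extracted spots with Agilent Feature Extraction. Median intensities of spots and local background were deposited without normalization, and the deposited processed intensity had been background-subtracted and dye-normalized. The deposited flags for spots above background, saturated or outlying were also used. Per array, 14 measurement columns were used and 19 were not. The authors normalized by lowess, called probes at an unadjusted p of 1% and considered sense probes only. Columns of the supplementary table with the authors' ratios and p-values were not used.

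Background was corrected by normexp (offset 50), log2 ratios of the deposited intensities were normalized by loess, outlier spots were left out, spots of a probe were averaged and each comparison was fitted with limma 3.58.1 (lmFit, eBayes) in R 4.3.3 over 133709 probes. The offset draws ratios of dim probes toward 0. Where a group was above background on neither array, the change is given as a bound against the lowest signal above background or the probe's own signal, whichever was higher. Levels were scaled between arrays by Aquantile and averaged over the hybridizations of an extract. The fits were tested on simulated data.

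Of the table, 1483 rows were readable and 4647 were not. Members, substrate classes, lists and tests were chosen with earlier results of these data known. All members could be named, with values per array for those called in 1-MCP+O3 vs O3 or O3 vs Control and for the highest and lowest of each class. Genes described beyond this rule were chosen after their values were seen. The dose of 1-MCP differs between the labels and the methods and is not given here. The methods name 3 replicates of 7 apples, while each group had 2 extracts on the arrays, a relation the sources used here do not explain. No array probe sequence was used here. Slide 1 holds 1-MCP vs Control and O3 vs Control and slide 2 the other comparisons, so slide and comparison cannot be told apart, although each ratio lies within an array. The alternatives are listed with their effects in the closing section.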

Additional observations from a re-analysis of the deposited data

Results flagged for a closer look

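With 2 extracts per group, no test for an outlying sample was possible. The ratios for 1-MCP had opposite signs without and with ozone, on every array, for 2 members. Neither gene was called in either comparison. The desaturase gene MDP0000523886 was 0.66 in 1-MCP vs Control (0.76 and 0.56) and -0.72 in 1-MCP+O3 vs O3 (-0.53 and -0.91). The amino acid permease gene MDP0000250404 was 0.55 in 1-MCP vs Control (0.48 and 0.62) and -0.14 in 1-MCP+O3 vs O3 (-0.04 and -0.23). Its extracts overlapped between the groups of both comparisons. Its spots differed by 0.71 on average, the most of all members with duplicate spots. In both cases the difference was not tested, since 1-MCP vs Control chose the members.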

How the results depend on the processing

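Counts of members called moved with the error model and the normalization. In the order 1-MCP vs Control, O3 vs Control, 1-MCP+O3 vs Control and 1-MCP+O3 vs O3, the counts called up were 36, 3, 19 and 17, and those called down 0, 3, 0 and 0. Median centring gave 4, 0, 2 and 0 up and 0 down. At an adjusted p under 0.05 all were 0, and with intensity trend and robust options, an alternative chosen after seeing the data, they were 12, 1, 9 and 1 up and 0 down. Of these, 12, 0, 7 and 1 were among the 36, 3, 19 and 17. At an unadjusted p under 0.05 the counts were 44, 6, 33 and 29 up and 0, 7, 1 and 1 down. Joint fits of 8 arrays gave 33 up in 1-MCP+O3 vs Control and 34 up and 1 down in 1-MCP+O3 vs O3 without a dye term, and 36, and 38 up and 1 down, with one, when 5 were up in O3 vs Control. Processed signals gave 1 up and 1 down in O3 vs Control. Leaving out dim probes gave 8 up in 1-MCP+O3 vs O3 and 0 down in O3 vs Control, which trend and robust options also gave.

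Without the replicate block, on extract levels, 30 rose in 1-MCP+O3 vs Control, 29 in 1-MCP+O3 vs O3 and 0 fell in O3 vs Control. Deviations of same-lettered extracts correlated between -0.512 and 0.643, and letter and dye go together, so the letters were not taken to pair the extracts beyond their shared array. A crossed replicate block, also chosen after seeing the data, gave 34, 25 and 25 up in the 3 comparisons with a correlation under -0.1. Leaving out 1 array of a comparison, in a fit of the other 7, gave 24 to 28 up in 1-MCP vs Control, 3 to 4 up and 1 to 3 down in O3 vs Control, 29 to 30 up in 1-MCP+O3 vs Control, and 29 to 32 up and 0 to 1 down in 1-MCP+O3 vs O3. The other settings kept each count within 1.5 times, and no called member changed sign under any alternative.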
